A study of Rattus norvegicus with 24 samples.

Results

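Foxq1 and Prr5l are 2 of the 8945 genes that could be named on this rat array. They were picked because earlier values from these arrays put them among genes with lower signal after the androgen dihydrotestosterone (DHT) in several tissues, so their DHT effects are given here as a description, with no test. Members were the probes whose accession belongs to either gene, which gave 2 probes of the 41012 on the array, 1 for each gene. Probe A_44_P493005 reports Foxq1 and probe A_44_P634470 reports Prr5l. Both were well above background on all 24 arrays, and neither carried an outlier mark on any of them.

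Animals were Sprague-Dawley rats aged 12 weeks. DHT groups received a single intraperitoneal dose of 10 mg/kg and vehicle groups received the carrier alone, and tissue was taken 16 h later. Prostate, skin and forebrain came from males that had been castrated 3 days before the dose, vehicle males included, whereas ovary came from intact females, which kept their own gonads. Each of the 8 groups had 3 one-colour arrays, and forebrain vehicle array 3, which its label marks as having failed quality control, was left out, so 23 arrays were used. DHT arrays lay on 3 slides and vehicle arrays on the other 3, with 1 array of every tissue on each slide, so treatment and slide cannot be told apart. In whole tissue, fewer cells of a type and less RNA per cell cannot be told apart either.

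Levels are log2 values set against each array's own 75th percentile, so a level of 0 is the brightness of the probe at that percentile. Tissue labels followed their defining markers. The neuron list (8 of 9 genes measured) averaged between 2.96 and 3.10 on forebrain DHT arrays and between 2.46 and 2.54 on forebrain vehicle arrays, against at most -1.79 on any vehicle array of another tissue. Keratinocyte genes (4 of 9 measured) averaged between 4.49 and 5.24 on skin DHT arrays and between 4.34 and 5.30 on skin vehicle arrays, and ovary genes (9 of 10 measured) between 1.74 and 2.71 on ovary DHT arrays and between 2.10 and 2.48 on ovary vehicle arrays. The prostate epithelium list (7 of 8 measured) averaged between 3.01 and 4.32 on prostate DHT arrays and between 2.95 and 3.74 on prostate vehicle arrays. Ovary vehicle arrays 1 and 3 had compressed signals, with 96.5% and 97.0% of probes well above background and interquartile ranges of 3.79 and 3.21 log2 units, against 70.5% and 6.15 on ovary vehicle array 2. Skin arrays were dim, with a 75th percentile of 55.4 to 203 intensity units under DHT and 75.7 to 379 under vehicle.

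Foxq1 encodes a forkhead transcription factor, a protein that binds DNA through a winged-helix domain, and was first described in rat as HFH-1. In mouse it is needed for the inner structure of the hair shaft, where it acts below the homeobox factor Hoxc13, and for mucin production in the stomach. In human and mouse epithelial cancer cells it lowers the adhesion protein E-cadherin. Prr5l encodes Protor-2, a protein that binds Rictor, the defining subunit of mTOR complex 2 (mTORC2). This complex phosphorylates kinases of the AGC family, among them Akt, Sgk1 and protein kinases C, and in mouse fibroblasts Prr5l promotes phosphorylation of protein kinase C delta. The human protein also binds tristetraprolin, which speeds the decay of mRNAs with AU-rich elements, such as those of cytokines.

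The 250 bases before the annotated start of each gene are shown because both genes were grouped by a response to a steroid whose receptor binds DNA. Both are printed on the coding strand, 5′ to 3′, from RefSeq on GRCr8, at chr17:33124088-33124337 (minus strand) for Foxq1 and chr3:108537764-108538013 (minus strand) for Prr5l. Both members matched in the promoter table. RefSeq gives Prr5l a longer span in that assembly, so this start belongs to only some of its transcripts. Capitals mark matches to the motifs described after the sequences.
Foxq1: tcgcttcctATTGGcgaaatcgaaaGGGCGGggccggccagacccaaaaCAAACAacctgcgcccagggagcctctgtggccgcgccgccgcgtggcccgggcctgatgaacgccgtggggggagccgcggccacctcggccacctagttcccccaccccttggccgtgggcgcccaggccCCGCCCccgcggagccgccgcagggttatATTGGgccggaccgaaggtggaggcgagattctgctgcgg
Prr5l: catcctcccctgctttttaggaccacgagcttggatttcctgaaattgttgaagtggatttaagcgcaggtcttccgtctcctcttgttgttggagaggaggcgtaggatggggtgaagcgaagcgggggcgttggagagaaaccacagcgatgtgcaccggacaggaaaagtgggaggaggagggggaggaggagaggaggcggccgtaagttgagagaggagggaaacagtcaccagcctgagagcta
Motifs were searched on both strands. The Foxq1 window was 71.6% G and C with 28 CG pairs, against medians of 52% and 6 over 27457 rat promoters of the same length, and 93.3% of those promoters had a lower G and C content. It held 2 GC boxes (GGGCGG or its complement CCGCCC, in 32.4% of promoters), starting 225 and 69 bases before the start. It also held 2 CCAAT boxes (CCAAT or ATTGG, in 34.3% of promoters), at 241 and 40 bases, and 1 forkhead core (TGTTTG or CAAACA, in 15.5% of promoters), at 201 bases. The Prr5l window was 56% G and C with 11 CG pairs and held none of the motifs searched. The full androgen receptor element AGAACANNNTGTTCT was in neither window and in 0.0036% of promoters. Its half-site TGTTCT (17.1% of promoters), the forkhead core TGTTTA (12.2%), the TATA box TATAAA (13.1%) and the E-box CACGTG (5.79%) were in neither window. No motif overlapped another. These matches are letters in a window and were not tested for binding.

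Foxq1 stood lower on every DHT array than on every vehicle array in prostate, ovary and skin, and the groups overlapped in forebrain. Prr5l stood lower in this sense in skin and forebrain, overlapped in ovary and prostate, and had nearly the same mean under both treatments in prostate. Neither gene was lower in all 4 tissues by this measure. Fitted log2 fold changes were below 0 in all 4 tissues for Foxq1 and in 3 of 4 for Prr5l. Over the 20143 genes kept in every tissue, 6.2% had a fold change below 0 in all 4 tissues, and 8.94% had every DHT array below every vehicle array in at least 2 tissues. Just 2 genes (0.00993%) met that in all 4 tissues, both of them probes with no symbol in the table used.

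In prostate, Foxq1 had log2 levels of 1.70, 2.12 and 2.30 on DHT arrays, against 3.59, 3.86 and 3.39 on vehicle arrays. The highest DHT array lay 1.09 log2 units below the lowest vehicle array. The means were 2.04 ± 0.31 with DHT and 3.61 ± 0.23 with vehicle (SD, n = 3 each), a log2 fold change of -1.57 ± 0.22 (SE), or 2.98-fold lower. Complete separation of this kind was seen for 16.5% of the 23738 prostate genes, and 1.55% of them had a lower fold change than Foxq1. The prostate epithelium list overlapped between treatments, as given above, and so did immune genes (5 of 8 measured, all well above background), which averaged between 2.14 and 2.55 on DHT arrays and between 2.50 and 2.83 on vehicle arrays. Endothelial genes (5 of 10 measured, 4 well above background on each array) did not overlap, at levels between -1.43 and -1.26 on DHT arrays and between -2.50 and -1.53 on vehicle arrays. Their part in the Foxq1 values was not tested.

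In ovary, Foxq1 had log2 levels of -3.37, -3.04 and -3.78 on DHT arrays, against -1.42, -1.73 and -1.15 on vehicle arrays. All 3 DHT arrays lay at least 1.31 log2 units below the vehicle arrays, including ovary vehicle array 2, whose signals were not compressed and which had the lowest vehicle value. The fold change was -1.96 ± 0.30 (SE), from means of -3.40 ± 0.37 with DHT and -1.43 ± 0.29 with vehicle, or 3.90-fold lower. The median fold change of all 29400 ovary genes was itself -0.23, 11.1% of them separated completely in this direction, and 6.95% had a lower fold change than Foxq1. Endothelial genes averaged between -0.43 and 0.17 on ovary DHT arrays and between 0.21 and 0.91 on ovary vehicle arrays, with 4 to 5 of the 5 measured well above background. Skeletal muscle genes (6 of 8 measured) averaged between -3.51 and -2.59 on ovary DHT arrays and between -2.41 and -1.70 on ovary vehicle arrays. The part of either list in this difference was not tested.

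In skin, Foxq1 had log2 levels of -0.09, 0.13 and 0.02 on DHT arrays, against 1.11, 0.21 and 0.54 on vehicle arrays. The groups were apart by only 0.08 log2 units, because vehicle array 2 lay close to the DHT arrays. Their means were 0.02 ± 0.11 and 0.62 ± 0.46, and the fold change was -0.60 ± 0.31 (SE), 1.52-fold lower. Without skin vehicle array 1 it was -0.36. Such separation was seen for 6.19% of 24122 skin genes, and 10.2% had a lower fold change. Hair follicle genes (7 of 12 measured), the cells in which mouse Foxq1 is best known, averaged -2.25, 2.51 and 2.94 on skin DHT arrays 1 to 3, and 3.99, 2.73 and 3.24 on skin vehicle arrays 1 to 3. On skin DHT array 1 they lay far below the other 5 skin arrays, and Foxq1 was also lowest there, at -0.09. Skeletal muscle genes (6 of 8 measured) averaged between 8.57 and 11.05 on skin DHT arrays but -1.66, 9.60 and 9.53 on the vehicle arrays, with the low value on vehicle array 1, where Foxq1 was highest. The prostate epithelium list, given with Prr5l, was also lower on every skin DHT array. The part of these 3 lists in the Foxq1 values was not tested.

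In forebrain, Foxq1 had log2 levels of -1.71, -1.91 and -2.0 on DHT arrays, against -1.64 and -1.74 on the 2 vehicle arrays used. DHT array 1 lay between the vehicle arrays, and the other 2 lay below them. The fold change of -0.18 ± 0.14 (SE) was close to the all-gene median of -0.02, and 36.7% of 26361 forebrain genes had a lower one. Complete separation in this direction was seen for 24.2% of forebrain genes, and Foxq1 was not among them.

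Prr5l had its plainest difference in skin. Its log2 levels there were -2.26, -2.11 and -2.01 on DHT arrays, against -0.94, -0.92 and -0.55 on vehicle arrays. The highest DHT array was 1.07 log2 units below the lowest vehicle array, a wider gap than that of Foxq1 in the same tissue. Of all skin genes, 6.19% had every DHT array below every vehicle array. Means were -2.13 ± 0.12 with DHT and -0.80 ± 0.22 with vehicle, a fold change of -1.32 ± 0.25 (SE) or 2.50-fold lower, and 2.13% of skin genes had a lower one. The processed intensities behind these levels were small, 11.6, 41.5 and 50.4 units on DHT arrays and 197, 40.1 and 98.8 units on vehicle arrays. With the normexp background correction, which adds an offset of 50 units and so pulls dim probes together, the skin difference was -0.52. The hair follicle and skeletal muscle levels of these arrays are those given with Foxq1. The prostate epithelium list, which holds the general epithelial genes Krt8, Krt18 and Epcam, averaged between -2.88 and -2.25 on skin DHT arrays and between -1.76 and -1.08 on skin vehicle arrays. The part of these 3 lists in the Prr5l values was not tested.

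In forebrain, Prr5l had log2 levels of -2.10, -2.10 and -2.13 on DHT arrays, against -1.38 and -1.60 on the 2 vehicle arrays. The DHT arrays agreed closely with each other (SD 0.014) and lay at least 0.50 units below the vehicle arrays. With 2 vehicle arrays in use, 24.2% of forebrain genes had every DHT array below every vehicle array. The fold change was -0.62 ± 0.13 (SE), 1.54-fold lower, and 11.5% of forebrain genes had a lower one. Marker lists were also apart between the treatments in forebrain, 4 of them lower with DHT and the neuron list higher, as given above. Oligodendrocyte genes (10 of 10 measured, all well above background) averaged between 3.27 and 3.60 on DHT arrays and between 4.13 and 4.36 on vehicle arrays. Endothelial genes (5 of 10 measured, all well above background) averaged between 1.11 and 1.33 on DHT arrays and between 1.49 and 1.95 on vehicle arrays. Immune genes (5 of 8 measured, all well above background) averaged between 0.27 and 0.47 on DHT arrays and between 0.65 and 1.09 on vehicle arrays, and skeletal muscle genes (6 of 8 measured) between -3.13 and -1.83 on DHT arrays and between 0.30 and 0.34 on vehicle arrays. The part of these lists in the Prr5l values was not tested.

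In the other tissues Prr5l showed no such gap. Ovary log2 levels were -2.08, -2.01 and -1.98 on DHT arrays, against -2.01, -1.85 and -1.62 on vehicle arrays. They overlapped by 0.03 log2 units, and the fold change of -0.19 ± 0.22 (SE) was close to the ovary all-gene median of -0.23. Prostate log2 levels were -2.39, -2.15 and -2.39 on DHT arrays, against -2.18, -2.23 and -2.64 on vehicle arrays. No DHT array lay below all vehicle arrays there, and the fold change was 0.04 ± 0.18 (SE), against an all-gene median of 0.06. A higher or lower value than that of Prr5l was about equally common, since 48.1% of prostate genes and 51.8% of ovary genes had a lower fold change.

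**Figure D1:**
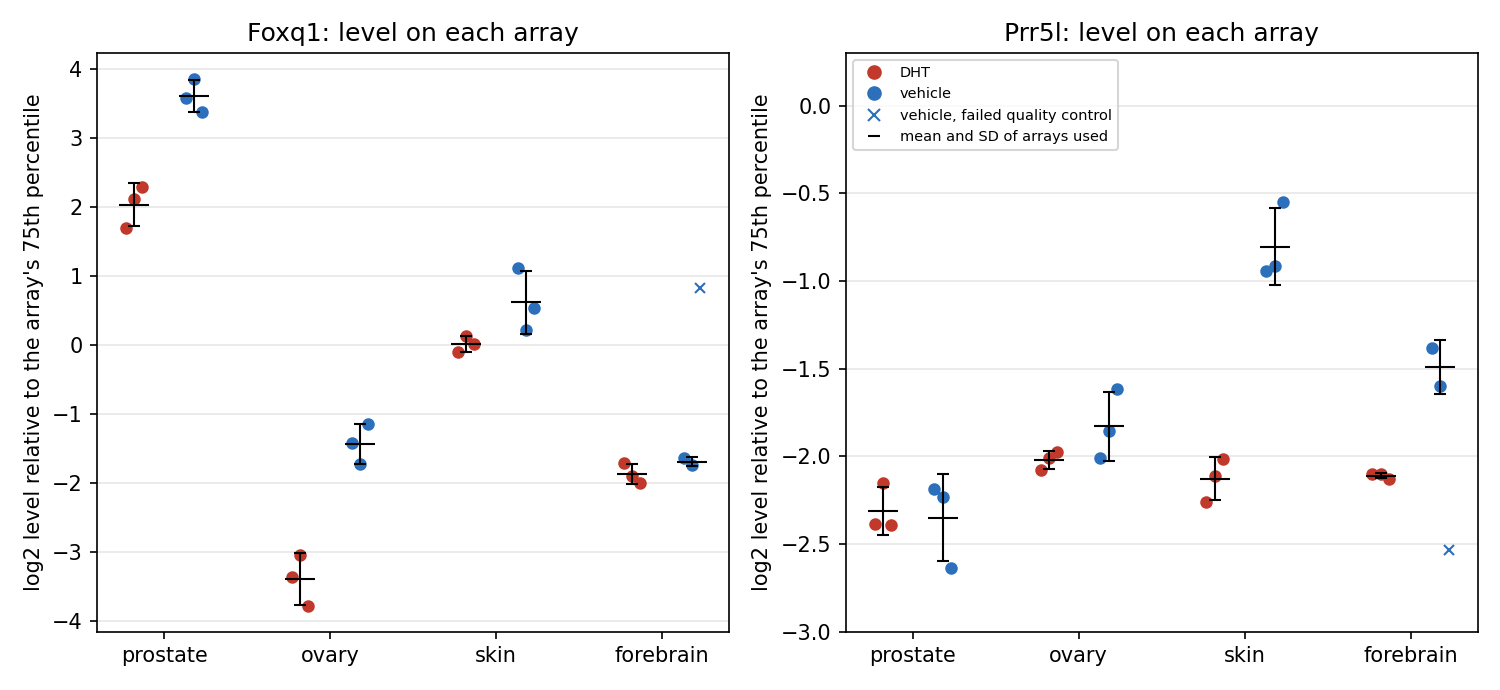
Log2 level of Foxq1 (left) and Prr5l (right) relative to the array's 75th percentile, by tissue, with 1 point per array, DHT in red and vehicle in blue; bars give the mean and SD of the arrays used and the cross is the array that failed quality control. Foxq1 is apart between treatments in prostate, ovary and skin, and Prr5l in skin, where its DHT arrays lie between -2.26 and -2.01, and in forebrain.

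**Figure D2:**
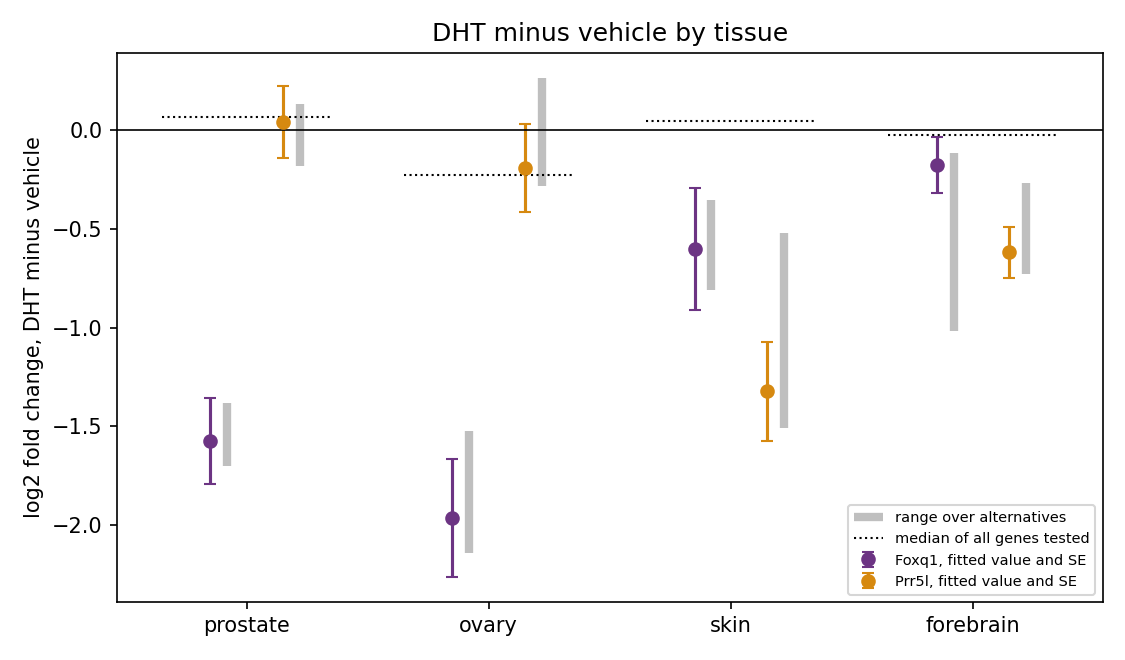
Log2 fold change, DHT minus vehicle, of Foxq1 (purple) and Prr5l (orange) in each tissue, with limma's standard error as bars, the range over the alternative settings as a grey band, and the median of all genes as a dotted line. Foxq1 keeps a negative value in every tissue, between -2.14 and -0.12 over all alternatives, whereas the bands of Prr5l cross 0 in prostate and ovary.

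Over the whole array, limma with Benjamini-Hochberg adjustment passed 9.64% of prostate genes at 0.05, 5.03% higher and 4.61% lower with DHT. It passed no gene in ovary, skin or forebrain, where 3076, 1192 and 7234 genes had an unadjusted p under 0.05. Because the DHT contrast chose both genes, their own p-values are not given.

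The level of each gene in the 4 tissues was tested with limma over all genes, once on the 12 DHT arrays and once on the 11 vehicle arrays. The choice of genes did not compare tissues, but it used the same arrays. A tissue difference on vehicle arrays departs from that on DHT arrays by the DHT effects that chose the genes. The p-values of these tests are therefore not independent of the choice. For Foxq1 the order on DHT arrays was prostate (2.04 ± 0.31), skin (0.02 ± 0.11), forebrain (-1.87 ± 0.15) and ovary (-3.40 ± 0.37). On vehicle arrays it was prostate (3.61 ± 0.23), skin (0.62 ± 0.46), ovary (-1.43 ± 0.29) and forebrain (-1.69 ± 0.07, n = 2). Prostate therefore had the highest scaled Foxq1 level under both treatments and skin the next. Before scaling, Foxq1 intensities were 87.7 to 820 units on the dim skin vehicle arrays and 504 to 890 on ovary vehicle arrays. A tissue difference was called with adjusted p = 5.88e-08 on DHT arrays and 1.46e-05 on vehicle arrays, in a test that 87.1% of genes passed on DHT arrays and 62.9% on vehicle arrays.

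On DHT arrays all 6 tissue pairs passed for Foxq1, in tests where 61.1% (prostate and skin), 59.9% (prostate and forebrain), 41.7% (prostate and ovary), 69.5% (skin and forebrain), 62.9% (skin and ovary) and 55.3% (forebrain and ovary) of genes passed in either direction. Prostate exceeded skin by 2.02 ± 0.22 log2 units (SE), 4.05-fold, with adjusted p = 2.57e-05 (limma). Prostate exceeded ovary by 5.43 ± 0.22, or 43.2-fold, and forebrain by 3.91 ± 0.22, or 15.04-fold. Forebrain lay above ovary by 1.52 ± 0.22, 2.88-fold, with adjusted p = 0.000178. Within single slides the prostate minus skin difference ranged from 1.79 to 2.28 and the forebrain minus ovary difference from 1.14 to 1.78, the same sign on 3 of 3 slides in each case.

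On vehicle arrays 5 of the 6 pairs passed for Foxq1. The shares of all genes passing were 38% for prostate and skin, 38.8% for prostate and forebrain, 24.9% for prostate and ovary, 42.5% for skin and forebrain, 33.1% for skin and ovary and 34.5% for forebrain and ovary. Prostate exceeded skin by 2.99 ± 0.29 log2 units, 7.94-fold, with adjusted p = 0.000129 (limma). It exceeded ovary 33.0-fold and forebrain 39.5-fold, by 5.04 ± 0.29 and 5.30 ± 0.33. Skin exceeded forebrain by 2.31 ± 0.33 (adjusted p = 0.000607, limma) and ovary by 2.05 ± 0.29 (0.00112). Forebrain and ovary, the lowest pair, differed by -0.26 ± 0.33 with adjusted p = 0.560, and their arrays overlapped. Within slides prostate lay 2.47 to 3.65 units above skin on 3 of 3 slides. On the 2 slides with both arrays in use, forebrain minus ovary was -0.23 and -0.01.

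Prr5l showed a different layout. On DHT arrays its 4 tissue means lay close together, at -2.31 ± 0.14 in prostate, -2.13 ± 0.12 in skin, -2.11 ± 0.01 in forebrain and -2.02 ± 0.05 in ovary. No tissue difference was called (adjusted p = 0.297, limma), in a test that 87.1% of genes passed on DHT arrays. No pair passed either, in tests that 41.7% to 69.5% of genes passed. The widest pair was prostate minus ovary at -0.29 ± 0.14 with adjusted p = 0.131 (limma). Prostate and skin overlapped, as did skin and forebrain, and skin and ovary. Prostate overlapped with neither forebrain nor ovary. Forebrain and ovary did not overlap either, with forebrain lower by 0.09 log2 units in the means and lower on 3 of 3 slides. The forebrain and ovary pair did not pass (-0.09 ± 0.14, SE, adjusted p = 0.630, limma). With normexp the test on DHT arrays did pass (adjusted p = 0.00149), with prostate 0.86 units below skin, and skin 0.82 units above forebrain and 0.79 above ovary. With quantile normalization of the processed signal, skin minus ovary also passed (-0.49), so whether the DHT arrays differed between tissues depended on both choices.

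On vehicle arrays the order for Prr5l was skin (-0.80 ± 0.22), forebrain (-1.49 ± 0.15, n = 2), ovary (-1.83 ± 0.20) and prostate (-2.35 ± 0.25). This order rests on scaling each array to its 75th percentile, which was low on skin arrays. Before scaling, Prr5l intensities were 40.1 to 197 units on skin vehicle arrays and 181 to 492 on prostate vehicle arrays. A tissue difference was called with adjusted p = 0.00295 (limma), in a test that 62.9% of genes passed on vehicle arrays, and 3 pairs passed. Of all genes, 38% passed for prostate and skin, 38.8% for prostate and forebrain and 33.1% for skin and ovary. Prostate lay below skin by -1.55 ± 0.24 log2 units, 2.92-fold, with adjusted p = 0.00129, and below forebrain by -0.86 ± 0.27, 1.81-fold, with adjusted p = 0.0327. Skin lay above ovary by 1.02 ± 0.24, 2.03-fold, with adjusted p = 0.0116. Neighbours did not pass: skin minus forebrain was 0.69 ± 0.27 (adjusted p = 0.0696), forebrain minus ovary 0.34 ± 0.27 (0.357) and prostate minus ovary -0.52 ± 0.24 (0.151). Within slides, prostate was below skin by -2.08 to -1.24 on 3 of 3 slides and skin was above ovary by 0.94 to 1.07 on 3 of 3. With slide as a replicate block, the prostate and forebrain call was lost (-0.89, adjusted p = 0.0512).

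**Figure D3:**
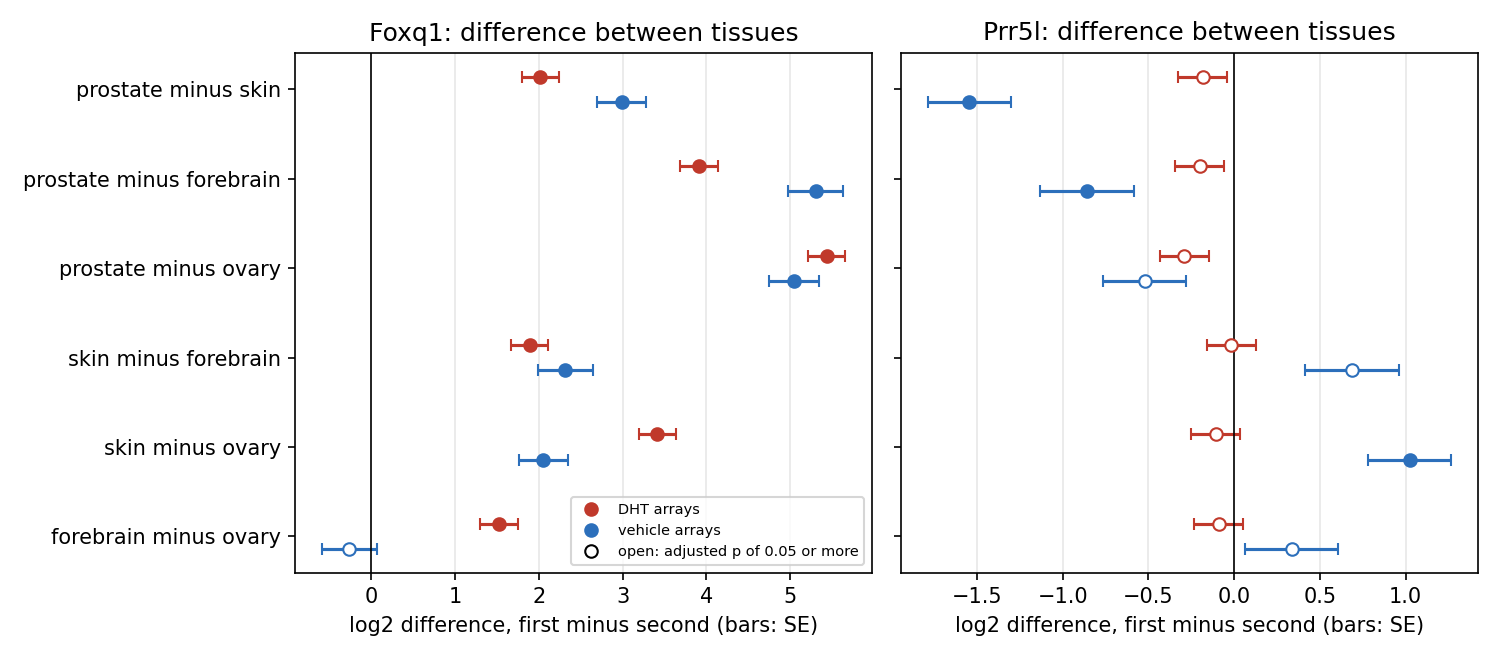
Log2 difference between each pair of tissues, first minus second, for Foxq1 (left) and Prr5l (right), on DHT arrays in red and vehicle arrays in blue, with limma's standard error as bars; filled points passed an adjusted p of 0.05. For Foxq1 every difference but forebrain minus ovary on vehicle arrays is filled, while for Prr5l the 3 filled points are all from vehicle arrays.

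The other genes of the mTORC2 system were followed in prostate, the tissue with calls. None of the 4 measured parts of the complex passed, and none had an unadjusted p under 0.05 (limma), which 27.6% of all prostate genes had. Mtor, the kinase, had a log2 fold change of -0.01 ± 0.18 (SE, adjusted p = 0.987), Mlst8, a shared subunit, -0.14 ± 0.27 (0.773), and Mapkap1, which encodes the mTORC2 subunit Sin1, -0.28 ± 0.16 (0.302). Prr5, the paralog of Prr5l that also binds Rictor, had -0.07 ± 0.25 in prostate (adjusted p = 0.886). Rictor and Deptor were not among the symbols matched. In the tissues where Prr5l was lower, Prr5 had 0.73 ± 0.27 in skin (adjusted p = 0.752) and -0.11 ± 0.22 in forebrain (0.787). Prr5 was dim in skin, with a vehicle mean of -3.53, and was well above background on only 2 of the 3 vehicle arrays. The median of the list was -0.10 in prostate, against 0.06 over all genes.

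The 5 measured genes around mTOR complex 1 (Tsc1, Tsc2, Rheb, Rps6kb1 and Eif4ebp1) encode proteins that act on or under it, not its subunits. Among them Rps6kb1, which encodes ribosomal S6 kinase, rose in prostate by 0.82 ± 0.19 (SE, adjusted p = 0.0485, limma). Of all prostate genes, 5.03% were called higher. Rheb, the GTPase that activates this complex, had 0.56 ± 0.16 (0.0777), and the list median was 0.44. Among 9 AGC kinases and partners, 2 fell in prostate, where 4.61% of all genes were called lower. Ndrg1, whose protein is phosphorylated by Sgk1, had 0.54 ± 0.10 with DHT and 2.41 ± 0.35 with vehicle, a fold change of -1.87 ± 0.21 (adjusted p = 0.00688), with -1.74 on its second probe. Prkcd, which encodes protein kinase C delta, had -0.69 ± 0.15 (adjusted p = 0.0390). This list's median was -0.02.

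Of 9 measured genes of the tristetraprolin family and of AU-rich mRNAs, 5 fell in prostate and none rose, with a list median of -0.76. Over all prostate genes, 4.61% were called lower and 5.03% higher. The lists were chosen with earlier results of these data known, and no set test was run. The neutrophil chemokines Cxcl1 and Cxcl2 fell by 4.20 ± 0.33 and 3.21 ± 0.28 on the log2 scale (SE, adjusted p = 0.00390 and 0.00441, limma). The fold changes of the others were -1.28 ± 0.23 for Ier3, an early response gene (adjusted p = 0.0220), -1.38 ± 0.24 for Zfp36l1, a relative of tristetraprolin with 1 outlier spot (0.0294), and -0.63 ± 0.13 for the transcription factor gene Myc (0.0353). Zfp36, which encodes tristetraprolin itself, had 0.97 ± 0.28 (adjusted p = 0.0796). Prr5l, at 0.04 in the same arrays, had no fold change of this size. The part of the immune and endothelial levels given above in these falls was not tested. Leaving out any 1 prostate array gave 3 to 5 calls over the 6 lists, in place of 8. Cxcl1, Cxcl2 and Ndrg1 passed in all 6 such fits, and Myc and Prkcd in none of them. Ier3 and Zfp36l1 passed only without vehicle array 3 among these fits, with adjusted p of up to 0.0842 and 0.130 in the other 5. Rps6kb1 passed only without DHT array 1, with adjusted p of up to 0.146 in the other 5. With normexp the calls of Rps6kb1 (adjusted p = 0.121), Zfp36l1, Myc and Prkcd were lost. Without the filter on dim probes those of Rps6kb1 (0.143), Ier3, Zfp36l1, Myc and Prkcd were lost. None of the 8 calls held with the replicate block. Adjusted p with the block was 0.0516 for Cxcl1, 0.0626 for Cxcl2 and Ndrg1, and 0.141 for Rps6kb1 (limma). In this DHT fit the block joins DHT and vehicle arrays of 1 replicate number, which lay on different slides. Deviations of such prostate pairs correlated at only -0.17 to -0.02 across genes.

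Around Foxq1, none of 7 measured forkhead genes passed in prostate (1 with an unadjusted p under 0.05, limma, against 27.6% of all prostate genes), and their median was -0.36. None of 11 measured genes linked to Foxq1 in other species passed either (2 with an unadjusted p under 0.05, against the same 27.6%), with a median of 0.33. In ovary, skin and forebrain no gene of the whole array passed, so none of these 6 lists could have one. Within those 3 tissues, unadjusted p-values under 0.05 were most frequent among the 12 genes linked to Foxq1 in forebrain (6 genes), where 27.4% of all genes had one.

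**Figure D4:**
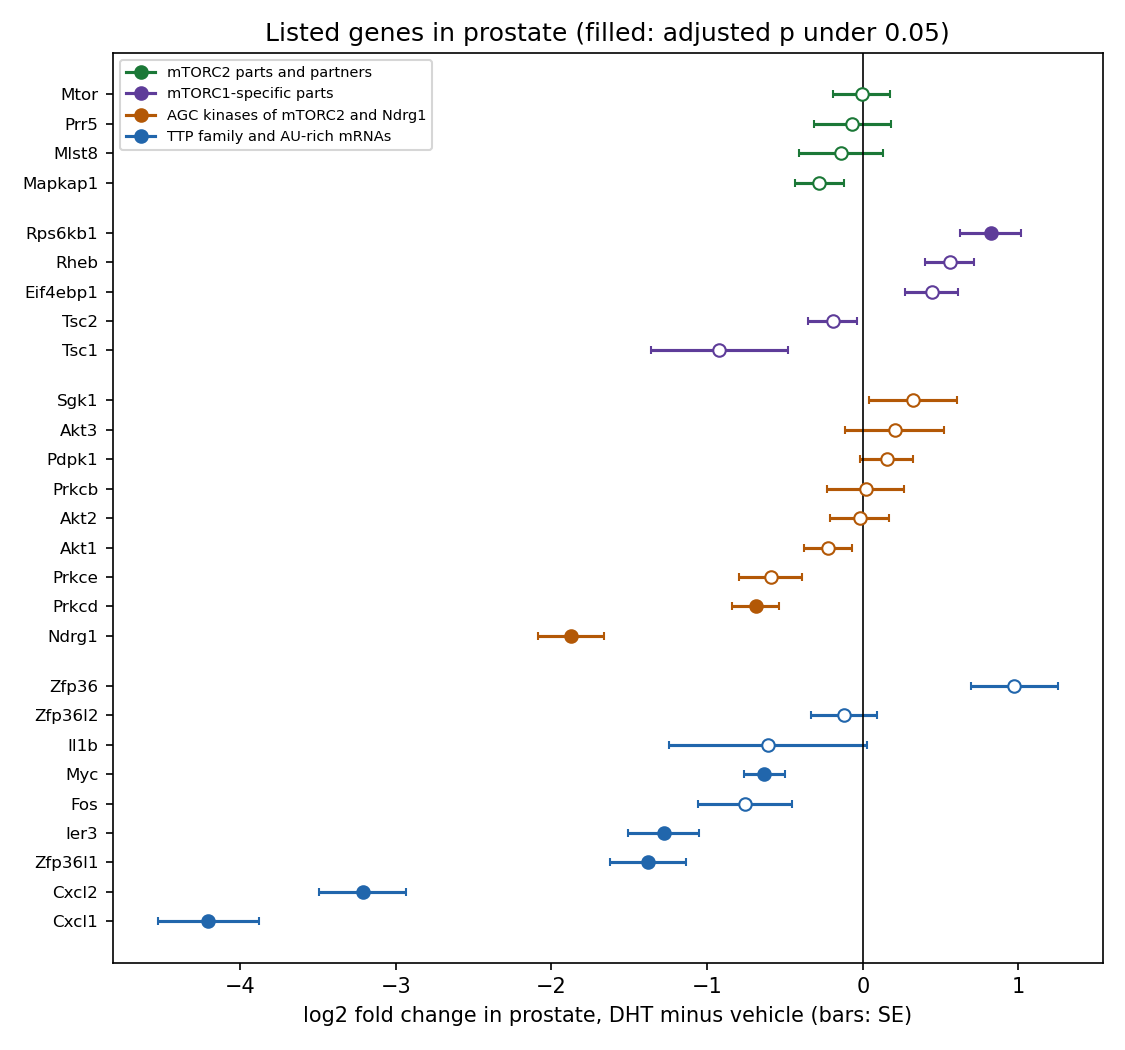
Log2 fold change in prostate, DHT minus vehicle, of each measured gene of 4 lists around mTOR and AU-rich mRNAs, with limma's standard error as bars; filled points passed an adjusted p of 0.05. The 4 mTORC2 genes lie within 0.28 of 0, Rps6kb1 is the only filled point above 0, and Cxcl1, Cxcl2 and Ndrg1 lie farthest below it.

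Genes most like each member were ranked by Pearson's r among 7681 named genes, as a description with no p. Points share a tissue or an array, and a high r over 8 group means needs little more than 1 high tissue. Once tissue means are subtracted, what remains holds the DHT differences by which the members were chosen. A DHT fall in genes ranked by that measure is therefore partly built in. Over the 8 group means Foxq1 was most like Erbb3 (r = 0.964), a receptor of the epidermal growth factor family, Pkib (0.963), an inhibitor of protein kinase A, Sypl1 (0.961), F2rl1 (0.955), a protease-activated receptor, and Tdp2 (0.949), a DNA repair enzyme. In prostate, Erbb3 was -2.49 with DHT and -0.90 with vehicle. Pkib shared the tissue order but was 3.04 with DHT and 3.04 with vehicle in prostate.

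Over 23 arrays with each tissue's mean subtracted, the genes most like Foxq1 included Necab1 (r = 0.870), a calcium-binding protein gene, Cyp3a9 (0.845), a cytochrome P450, Snx20 (0.808), a sorting nexin, and Pag1 (0.801), a membrane adaptor. In forebrain, where Foxq1 overlapped, Necab1 went the other way, at -1.99 with DHT and -2.56 with vehicle.

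For Prr5l the nearest over group means were Dxo (r = 0.917), an RNA decapping enzyme, Arg1 (0.882), which encodes arginase, Trh (0.861), which encodes thyrotropin-releasing hormone, Lef1 (0.848), a Wnt pathway transcription factor, and Gtf2ird1 (0.839). Lef1, which is also in the hair follicle list, was -2.54 with DHT and -0.13 with vehicle in skin and -4.57 with DHT and -3.68 with vehicle in forebrain. Over 23 arrays they included Aurka (0.777), a mitotic kinase, Sat1 (0.745), which acetylates polyamines, Nup93 (0.733), a nuclear pore protein gene, and Ribc1 (0.717). In skin, Sat1 was 1.16 with DHT and 3.17 with vehicle, and Aurka was -1.95 with DHT and -0.43 with vehicle. The lists of Foxq1 and Prr5l had no gene in common, and the members themselves had r = -0.21 over the 8 means and r = 0.31 over the 23 arrays.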

How the data were processed

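RNA of 24 samples was labelled with Cy3 and hybridized to Agilent rat arrays, per the labels' protocols. The deposited intensity values are processed signals that Agilent Feature Extraction 10.5.1.1 (10.1 per the submitters' processing notes, which also name limma) had corrected for background and spatial trend, with no scaling between arrays, per the file headers. Array probes were designed on rn4, per the file headers, and gene symbols came from RefSeq on GRCr8, matched by accession (10813 of 41012 probes). Control and outlier spots were left out, and no spot was saturated. The log2 of each deposited intensity had the array's 75th percentile subtracted. A probe was kept if 3 or more of the fitted arrays had it well above background, and a gene was represented by its brightest probe. Each tissue, and the tissues on DHT or vehicle arrays, were fitted with limma 3.58.1 in R 4.3.3 (lmFit, eBayes, Benjamini-Hochberg over all genes, threshold 0.05) and tested on simulated data. The number of arrays limits the precision. The design text speaks of biological replicates, but no label names the animals, so part of the spread behind the p-values may be technical.

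The members and lists were chosen with earlier results of these data known. Genes named were the members, list genes that passed (at most 6 per list and tissue), the named mTORC2 parts, and the 5 nearest by each likeness measure, of which some are not reported here. Rheb and Zfp36 were named after their values were seen. A replicate number is the slide within a treatment. Alternatives were normexp background correction (on median signals, since mean signals are not in the files used), quantile normalization, the replicate number as a block, and no filter. Further ones were other percentiles, all arrays together, the array that failed quality control, the compressed ovary arrays and each replicate left out. The series design text gives castrated males for all tissues, and the sample labels were followed.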

Additional observations from a re-analysis of the deposited data

Results flagged for a closer look

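Forebrain vehicle array 3, which its label marks as having failed quality control, was outside every comparison. Foxq1 had a log2 level of 0.83 on it, above the -1.64 and -1.74 of the other 2 forebrain vehicle arrays and above the highest forebrain DHT array at -1.71. Prr5l had -2.53 on it, below -1.38 and -1.60 on those arrays and below all 3 DHT arrays. The interquartile range of this array was 1.96 log2 units and 98.4% of its probes were well above background, against 5.91 and 75.7% on forebrain vehicle array 1. The part of this compression in the 2 levels was not tested.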

How the results depend on the processing

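The DHT fold change of Foxq1 stayed below 0 in all 4 tissues under every alternative run, at -1.70 to -1.38 in prostate, -2.14 to -1.52 in ovary, -0.81 to -0.35 in skin and -1.02 to -0.12 in forebrain, and that of Prr5l did in skin (-1.51 to -0.52) and forebrain (-0.73 to -0.27). Prr5l changed sign in prostate under 3 alternatives and in ovary under 1. Of 90 such values, 8 moved by more than 1 SD. With normexp they were Prr5l in prostate (-0.18) and skin (-0.52) and Foxq1 in ovary (-1.52). With quantile normalization they were Foxq1 in ovary (-1.58) and Prr5l in ovary (0.26) and skin (-1.51). With forebrain vehicle array 3 they were Foxq1 (-1.02) and Prr5l (-0.27) in forebrain. Each member had 1 probe, so giving every probe by itself could not differ. Setting aside both compressed ovary arrays left 1 vehicle array against 3, assumed to vary like the others.

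Prostate calls (2288 genes, 8 in lists) were 652 and 4 with normexp, 0 and 0 with the replicate block, 619 and 3 without the filter, and 574 to 2746 and 3 to 5 leaving out 1 array. With the percentile over all spots, an alternative chosen after seeing the data, the lists had 5. Ovary calls (0) were 9 with quantile normalization and 0 to 7578 leaving out 1 array, the highest without vehicle array 2, where the lists had 0 to 9. Forebrain calls (0) were 500 with normexp and 627 with quantile normalization, each with 1 list call, and 0 to 49 leaving out 1 array, 49 without vehicle array 1 and 1 without DHT array 1. The cause of these shifts was not tested.

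Every tissue call of Foxq1 held except skin minus forebrain (1.47, adjusted p = 0.121, limma) and skin minus ovary (2.05, 0.0568) with forebrain vehicle array 3 included. For Prr5l on vehicle arrays, prostate minus forebrain no longer passed with normexp (-0.45), quantile normalization (-0.64), the replicate block (-0.89), the array median (-0.59), forebrain vehicle array 3 (-0.51) or without prostate arrays 1, 2 or 3 or forebrain arrays 1 or 2 (-0.97 to -0.72 over all arrays left out). The median also lost prostate minus skin (-0.999) and the overall test (0.0610), and forebrain vehicle array 3 lost skin minus ovary (1.02). Fitting all arrays together passed prostate minus ovary (-0.52) and skin minus forebrain (0.69). On DHT arrays normexp passed the overall test (0.00149) and prostate minus skin (-0.86) and turned skin minus forebrain (0.82) and skin minus ovary (0.79) round, while quantile normalization passed skin minus ovary (-0.49). The replicate block changed no other call of either member. Replicate numbers were not taken as pairs: deviations of DHT and vehicle arrays of 1 number correlated at -0.48 to 0.22 (1 of 11 pairs over 0.1), and those of tissues on 1 slide passed 0.1 in 7 of 18 DHT and 8 of 15 vehicle pairs.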
